A study of Homo sapiens with 12 samples.

Results

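The genes described here are 36 members of cholesterol and fatty acid synthesis and of their control, taken by gene symbol from the 13588 genes listed in the deposited tables. They comprise 7 genes of the mevalonate branch, 11 genes that lead from squalene to cholesterol, 5 genes that control the pathway, 5 genes of sterol transport and efflux, 7 genes of fatty acid synthesis and the glycerolipid gene LPIN1. Expression was measured by RNA-seq in MCF-12A cells, a human mammary epithelial cell line that is not derived from a tumour. Cells had been given TGFbeta1, a cytokine that drives epithelial-mesenchymal transition in many epithelia, or vehicle (control), and the question was what TGFbeta1 does to RNA levels. The 12 libraries came as 2 sets that were normalised apart. The first holds controls 1 to 3 and TGFbeta1 libraries 1 to 3, and the second has controls 4 to 6 and TGFbeta1 libraries 4 to 6. The labels give neither dose nor time and do not state that replicates are separate cultures, so p-values speak only of the spread between these libraries. The groups share the cell line and differ, per the labels, only in the agent. Every change below was taken within a set.

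As background, cholesterol is made from acetyl-CoA through mevalonate, isoprenoid diphosphates, squalene and lanosterol, while fatty acids are built from the same acetyl-CoA through malonyl-CoA. The transcription factors SREBP1 and SREBP2 (from SREBF1 and SREBF2) turn on the enzymes of the sterol and the fatty acid branch. When sterols are low, SCAP escorts the SREBPs out of the endoplasmic reticulum to be cut and released, and when sterols are high the INSIG proteins hold SCAP back. SREBP sites are often found next to CCAAT boxes bound by NF-Y, which works together with SREBP. Oxysterols act through other factors, the LXRs, whose known targets include ABCA1, ABCG1 and SREBF1.

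Levels are given as FPKM, fragments scaled by transcript length and library total, summed over the listed protein-coding transcripts of a gene. The summed FPKM of a library ranged from 291802 to 318270 (first set) and from 338968 to 358433 (second set), and without counts the depth is unknown. As a check of the treatment, SMAD7, ITGB6, FN1 and TGFBI, known TGFbeta-induced genes, were examined in each set. All 4 were higher with TGFbeta1 in the first set. In the other set 0 of 4 were called in either direction, and SMAD7 was at 1.199, 1.15 and 1.02 FPKM in controls against 1.09, 0.748 and 0.894 in the libraries labelled TGFbeta1. FN1 and TGFBI lay below every control there, with log2 changes of -0.74 and -1.42 (adjusted p = 0.226 and 0.288). The labels do not say whether replicates 4 to 6 had the same dose and time as replicates 1 to 3, so what the agent label stands for in the second set is uncertain. The 7 breast epithelial markers, all listed, summed to 2222 to 2849 FPKM in controls and 1710 to 2020 with TGFbeta1 in the first set, and to 1602 to 1821 and 1686 to 1846 in the second. They did not share a direction in the first set. EPCAM, KRT5 and KRT18 were called lower (log2 changes -1.03, -0.64 and -0.75). CDH1 and KRT14 had values below 0, and KRT8 and TP63 above 0, that did not pass the test. Fibroblast markers summed to 1.56 to 1.84 FPKM in controls and 13.7 to 16.9 with TGFbeta1 in the first set (2 of 6 listed, COL1A1 and DCN), and to 28.6 to 32.6 and 12.04 to 15.7 in the second (3 of 6 listed, with PDGFRA). COL1A1 and DCN were called higher in the first set (log2 changes 2.65 and 1.21). In the second set DCN was called lower (-1.14, adjusted p = 0.038 in limma), and COL1A1 and PDGFRA were under the filter. Adipocyte markers, 2 of 5 listed in the first set and 1 of 5 in the second, summed to at most 1.19 FPKM in any library. Leukocyte markers (CD14 and CSF1R listed, of 5) summed to 3.84 to 4.85 FPKM over the libraries of the first set and, in the second, to 5.39 to 7.23 in controls and 8.86 to 9.51 with TGFbeta1. Within the first set CD14 fell (log2 change -1.28, adjusted p = 0.00123) and CSF1R rose (1.01, adjusted p = 0.0023). Of the endothelial and hepatocyte markers 1 each was listed, at no more than 0.868 and 11.1 FPKM. The part of these shifts in the results below was not tested, and in bulk RNA a change in the make-up of the cells and a change per cell cannot be told apart.

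Promoter sequences are shown for MSMO1, STARD4, HSD17B7 and SREBF1, because the response of these 4 members differed between the sets among those that passed the filter. Of all genes tested for such a difference, 7.56% were called higher in the second set and 6.06% lower. Each run is the 250 bases before the annotated start, from RefSeq on GRCh38.p14, 5′ to 3′ on the gene's strand. The windows are chr4:165327419-165327668 (plus strand) for MSMO1, chr5:111512536-111512785 (minus) for STARD4, chr1:162790452-162790701 (plus) for HSD17B7 and chr17:17836987-17837236 (minus) for SREBF1. Capitals mark TCACNCCA, the form of sterol regulatory element searched for, and the CCAAT box, each on either strand.
MSMO1: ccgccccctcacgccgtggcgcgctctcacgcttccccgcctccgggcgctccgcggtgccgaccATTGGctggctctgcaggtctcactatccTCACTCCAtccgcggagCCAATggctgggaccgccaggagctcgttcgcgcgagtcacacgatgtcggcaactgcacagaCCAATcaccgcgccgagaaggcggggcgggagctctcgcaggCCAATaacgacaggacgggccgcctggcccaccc
STARD4: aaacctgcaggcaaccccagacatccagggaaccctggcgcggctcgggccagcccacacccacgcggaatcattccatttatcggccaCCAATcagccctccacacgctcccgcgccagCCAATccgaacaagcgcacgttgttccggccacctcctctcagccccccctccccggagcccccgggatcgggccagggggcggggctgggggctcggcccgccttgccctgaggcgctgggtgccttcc
HSD17B7: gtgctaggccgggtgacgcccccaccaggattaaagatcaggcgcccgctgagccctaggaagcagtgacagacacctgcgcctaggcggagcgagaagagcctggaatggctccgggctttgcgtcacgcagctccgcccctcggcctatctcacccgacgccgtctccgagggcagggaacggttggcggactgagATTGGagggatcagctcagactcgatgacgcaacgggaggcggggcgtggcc
SREBF1: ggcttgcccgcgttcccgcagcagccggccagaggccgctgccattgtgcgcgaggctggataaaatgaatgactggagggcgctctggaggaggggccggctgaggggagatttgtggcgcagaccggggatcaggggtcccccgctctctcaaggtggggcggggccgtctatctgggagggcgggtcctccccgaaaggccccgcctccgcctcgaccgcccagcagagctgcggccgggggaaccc
The MSMO1 window holds 1 element of the sterol type and 4 CCAAT boxes, on both of its sides. The STARD4 window holds 2 CCAAT boxes, the HSD17B7 window 1 and the SREBF1 window 0, and TCACNCCA is in none of these 3 windows. RefSeq promoters were matched for 31 of the 36 members (not ACAT2, FDFT1, SQLE, ABCG1 and FASN). A CCAAT box stood in at least 1 promoter entry of 20 of the 31 (64.5%), against 42.3% of 8332 genes tested in the first set and 37% of all 27305 genes with an entry. TCACNCCA stood in 3 of the 31 (9.68%; MVK, MSMO1 and SREBF2), against 3.83% and 3.92%. These matches describe letters in a window and do not show binding.

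In the first set, 3 of the 17 sterol synthesis genes tested were called higher with TGFbeta1, and of these only the MSMO1 call held without any 1 library. The sterol synthesis enzymes IDI1, CYP51A1 and MSMO1, the sterol carriers STARD4 and NPC1 and the fatty acid desaturase FADS2 rose, and SREBF1 and LPIN1 fell. The filter on low values, a mean of at least 1 FPKM, was passed by 33 members, and TM7SF2, ABCA1 and ABCG1 were not tested. Of the 33, 6 were called higher and 2 lower, and 25 did not pass the test (limma, Benjamini-Hochberg adjusted p under 0.05). Over all 10454 genes tested, 9% were called higher and 11.9% lower. The median log2 change of the 33 members was 0.29, with 21 above 0 and 12 below, beside a median of -0.05 over all genes tested. The TGFbeta1 libraries lay above every control for 13 of the 33 and below every control for 4, beside 18.2% and 25.1% of all genes tested. The 3 other scalings of the libraries moved the all-gene median to between -0.01 and 0.02 and its calls from 941 higher and 1245 lower to as many as 1164 higher and 855 lower (libraries set to an equal sum).

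**Figure D1:**
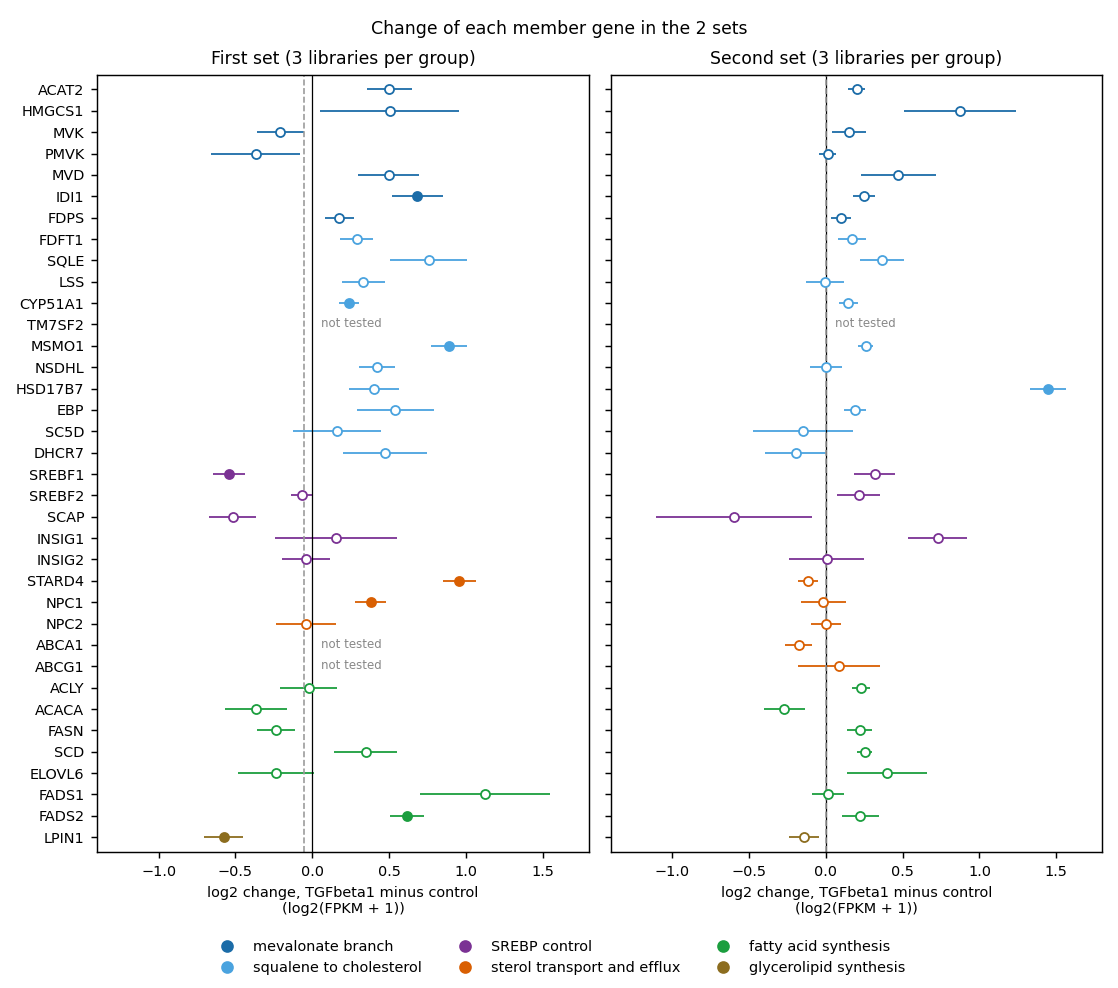
Log2 change (TGFbeta1 minus control, log2(FPKM + 1)) of each member in the first set (left) and the second (right), with bars of 1 standard error from limma on 3 libraries per group; filled points passed the test and the dashed line is the median of all genes tested. In the first set 8 points are filled, with MSMO1 at 0.89 and STARD4 at 0.96 on the right and LPIN1 at -0.58 on the left, and in the second set only HSD17B7, at 1.45.

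MSMO1, the oxidase that starts the removal of the methyl groups at carbon 4 of lanosterol-derived sterols, stood at 29.6, 29.2 and 38.2 FPKM in controls against 60.4, 57.7 and 62.6 with TGFbeta1. The 2 groups did not overlap. It rose by 0.89 on the log2 scale (SE 0.12, adjusted p = 0.00554), and the call held without any 1 library and in all 10 other settings tried. IDI1, which interconverts the isoprenoid building blocks isopentenyl and dimethylallyl diphosphate, stood at 34.9, 35.4 and 48.6 FPKM in controls and 64.3, 55.0 and 72.4 with TGFbeta1. Every TGFbeta1 library was above every control (log2 change 0.68, SE 0.17, adjusted p = 0.0398). CYP51A1, the lanosterol demethylase, was at 79.3, 80.0 and 86.9 FPKM against 96.1, 94.9 and 100.02. Its groups also lay apart, at a smaller distance (log2 change 0.24, SE 0.06, adjusted p = 0.0474). The calls of IDI1 and CYP51A1 were kept without control 3 (adjusted p = 0.0181 and 0.0257) and lost without any other library (0.0571 to 0.111 and 0.107 to 0.131), and that of CYP51A1 was lost in 5 of 10 other settings (0.0503 to 0.0883).

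The other enzymes of the sterol branch mostly had values above 0 that did not pass the test. Of the 17 sterol synthesis genes tested, 15 had a log2 change above 0, with a median of 0.42. Of the same 17, 3 were called higher and none lower, and the groups lay apart upward for 8. Beside this, 9% of all genes tested were called higher, 11.9% lower, and 18.2% lay apart upward. The share of all genes with a change above 0 was not counted, and the all-gene median was -0.05. Along the mevalonate branch the changes were 0.50 for ACAT2, the thiolase that joins acetyl-CoA units, 0.50 for HMGCS1, which makes hydroxymethylglutaryl-CoA, 0.50 for the decarboxylase MVD and 0.18 for the farnesyl diphosphate synthase FDPS. The kinases MVK and PMVK had -0.21 and -0.37. HMGCS1 was spread widely in the controls, at 16.8, 32.1 and 62.4 FPKM, and its TGFbeta1 values of 42.4, 45.3 and 52.1 lay inside that range. From squalene on, every one of the 10 genes tested was above 0. The squalene synthase FDFT1 had 0.29, the squalene epoxidase SQLE 0.76, the lanosterol synthase LSS 0.33 and the dehydrogenase NSDHL, which acts after MSMO1, 0.42. HSD17B7, the reductase that completes the removal of each of those methyl groups, had 0.40, the sterol isomerase EBP 0.54, the desaturase SC5D 0.16 and the reductase DHCR7, which can make the last double bond reduction, 0.47. The adjusted p of these 14 uncalled genes ran from 0.0545 for NSDHL to 0.73 for SC5D. TM7SF2, a sterol reductase, was under the filter at 0.126 to 2.32 FPKM.

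Control 3 stood apart from controls 1 and 2 for many of these genes. It was the highest control for IDI1, CYP51A1, MSMO1, NSDHL, HSD17B7, FDFT1, FDPS and LSS. Without control 3, NSDHL (adjusted p = 0.00872), FDFT1 (0.0161), HSD17B7 (0.0191), FDPS (0.0301) and LSS (0.0476) were called higher too, and 10 members in all. EBP was called without control 1 (adjusted p = 0.0219). With the 3 other scalings ACAT2 and NSDHL were called higher as well (adjusted p of 0.0376 to 0.0496 and 0.0258 to 0.0351), and FDFT1 with 2 of them (0.0481 and 0.0484).

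Of the genes that control the pathway, SREBF1 fell and none rose. SREBF1 was at 33.0, 36.03 and 29.0 FPKM in controls against 23.6, 22.5 and 20.2 with TGFbeta1, with every TGFbeta1 library below every control (log2 change -0.54, SE 0.11, adjusted p = 0.0199). SREBF2, the gene of the SREBP most tied to sterol enzymes, was at 39.4, 41.3 and 40.8 FPKM against 37.2, 41.5 and 37.4 (log2 change -0.07, SE 0.07, adjusted p = 0.545). The escort protein gene SCAP was at 10.5, 12.6 and 9.22 FPKM against 5.98, 7.49 and 8.16. Its groups did not overlap, yet it did not pass the test (log2 change -0.52, SE 0.15, adjusted p = 0.0678). The retention genes INSIG1 and INSIG2 had log2 changes of 0.16 and -0.04, with standard errors of 0.40 and 0.16. INSIG1 was among the most variable members in the controls, at 35.1, 18.4 and 58.2 FPKM against 35.3, 37.5 and 40.2 with TGFbeta1. The SREBF1 call was lost without control 1, control 2, TGFbeta1 2 or TGFbeta1 3 (adjusted p of 0.0567 to 0.0664) and held in all 10 other settings.

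Among the genes of sterol transport and efflux, STARD4 and NPC1 rose. STARD4, a soluble carrier that moves sterol between membranes, stood at 3.05, 3.20 and 3.23 FPKM in controls against 6.06, 7.69 and 7.59 with TGFbeta1. Its controls differed little and all TGFbeta1 libraries were far above them (log2 change 0.96, SE 0.11, adjusted p = 0.0031), a call that held without any 1 library and in all 10 other settings. NPC1, the lysosomal membrane protein through which cholesterol leaves the lysosome, was at 19.8, 21.0 and 18.9 FPKM against 29.7, 25.1 and 24.1 (log2 change 0.38, SE 0.10, adjusted p = 0.0488). The NPC1 call was lost without each of the 6 libraries in turn (0.0627 to 0.122) and in 4 of 10 other settings (0.0505 to 0.0925). Its partner in the lysosome, NPC2, was at 120 to 131 FPKM in controls and 88.5 to 145 with TGFbeta1 (log2 change -0.04, adjusted p = 0.907). The efflux transporter genes ABCA1 and ABCG1 were under the filter in this set. ABCA1 was at 0.275, 0.353 and 0.271 FPKM in controls against 0.856, 1.01 and 0.911 with TGFbeta1, and with no filter its log2 change was 0.57 (adjusted p = 0.00268). ABCG1 was at 0.588, 0.248 and 0.677 FPKM against 0.801, 1.003 and 0.854, and with no filter its log2 change was 0.34 (adjusted p = 0.127).

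The fatty acid genes did not share a direction in the first set. Of the 7, FADS2 was called higher, 3 had values above 0 and 4 below, and their median log2 change was -0.02. Beside this, 9% of all genes tested were called higher and 11.9% lower. FADS2, the desaturase that takes the first step from linoleic and alpha-linolenic acid to longer polyunsaturated fatty acids, was at 26.1, 22.3 and 28.9 FPKM in controls against 38.0, 38.8 and 42.8 with TGFbeta1. The groups were well apart (log2 change 0.62, SE 0.11, adjusted p = 0.0154), and the call was lost without TGFbeta1 3 (0.0512). The neighbouring desaturase gene FADS1 was at 8.33, 6.56 and 7.33 FPKM against 11.2, 34.9 and 13.0. TGFbeta1 2 stood far above the other libraries, and FADS1 did not pass the test (log2 change 1.12, SE 0.42, adjusted p = 0.121) except without that library (log2 change 0.64, adjusted p = 0.0469). The stearoyl-CoA desaturase SCD, which makes oleic acid, was among the most abundant members, at 281, 282 and 303 FPKM against 508, 315 and 308 (log2 change 0.35, adjusted p = 0.285). The enzymes that make palmitate had values below 0, none of which passed the test. The log2 change was -0.02 for the citrate lyase ACLY, -0.37 for the acetyl-CoA carboxylase ACACA and -0.24 for the fatty acid synthase FASN, whose groups did not overlap at 183, 180 and 240 FPKM against 163, 167 and 177. It was -0.24 for ELOVL6, which extends palmitate. LPIN1, the phosphatidate phosphatase that makes diacylglycerol, fell from 17.7, 16.5 and 22.4 FPKM to 11.6, 12.2 and 12.9 (log2 change -0.58, SE 0.13, adjusted p = 0.0288). That call did not hold without control 1 or without each TGFbeta1 library in turn (0.0646 to 0.0897).

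**Figure D2:**
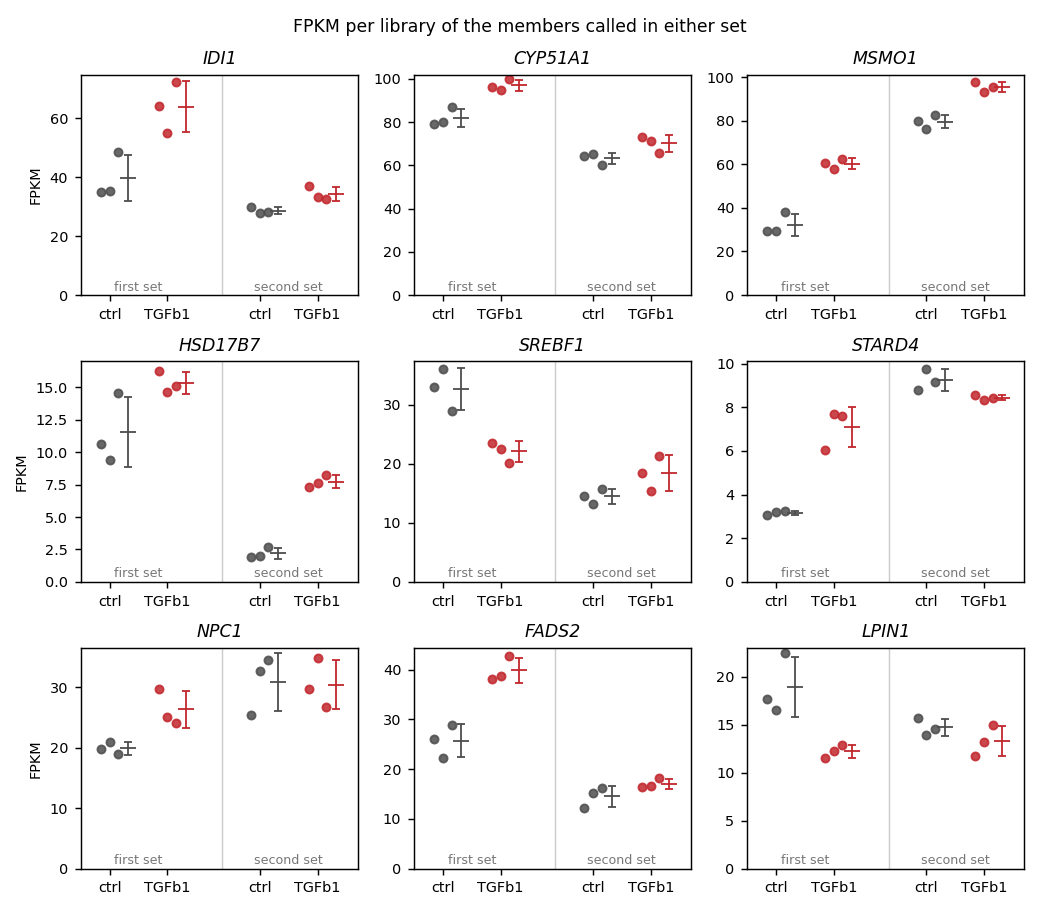
FPKM in each library (points) of the 9 members called in either set, with the mean and SD of each group of 3 libraries beside them; each panel has its own axis from 0, and the sets were normalised apart. In the first set STARD4 controls sit at 3.05 to 3.23 and TGFbeta1 libraries at 6.06 to 7.69, while HSD17B7 in the second set sits at 1.92 to 2.69 (controls) and 7.28 to 8.24 (TGFbeta1).

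In the second set 1 member, HSD17B7, was called higher and 0 lower of 35 tested, beside 0.17% higher and 0.151% lower of the 10579 genes tested. At an unadjusted p under 0.05 in limma, 10 members had a log2 change above 0 and 0 had one below, beside 5.79% and 5.39% of all genes tested. Apart from HSD17B7 these were ACAT2, IDI1, SQLE, MSMO1, EBP, INSIG1, ACLY, FASN and SCD, none of which passed the test (adjusted p of 0.143 to 0.426). HSD17B7 was at 1.92, 2.03 and 2.69 FPKM in controls against 7.28, 7.64 and 8.24 in the libraries labelled TGFbeta1, with a wide gap between the groups (log2 change 1.45, SE 0.12, adjusted p = 0.0222). That call was kept without control 6 (adjusted p = 0.032) and lost without any other library (0.0617 to 0.0906), although the log2 change stayed between 1.38 and 1.55. In the authors' deposited table the only listed transcript of the gene, HSD17B7-201, has a log2 fold change of 1.45, a p of 0.000231 and a q of 0.121. The genome holds near-identical pseudogene copies of HSD17B7, and reads they share could be assigned to either.

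The remaining members of the second set did not pass the test, and most had log2 changes above 0. The median log2 change of the 35 was 0.15, with 26 above 0 and 9 below, beside -0.00031 over all genes tested. Groups did not overlap for 12 members with TGFbeta1 higher and for 2 with it lower, beside 9.71% and 9.62% of all genes tested. In the sterol branch, MSMO1 was at 79.9, 76.4 and 82.5 FPKM against 97.5, 93.2 and 95.7, a small shift with no overlap (log2 change 0.26, SE 0.05, adjusted p = 0.156). HMGCS1 was at 31.9, 12.3 and 30.7 FPKM against 48.8, 42.4 and 38.3 (log2 change 0.87, SE 0.37, adjusted p = 0.463), with control 5 far under the rest. The log2 changes of the other sterol genes ran from -0.19 for DHCR7 to 0.47 for MVD, TM7SF2 was again under the filter, and 7 of the 17 sterol genes tested lay apart upward. Among the control genes INSIG1, itself a known SREBP target, was at 36.8, 38.9 and 61.2 FPKM against 75.2, 74.6 and 72.8 (log2 change 0.73, SE 0.19, adjusted p = 0.282), and it was called without control 6 (log2 change 0.95, adjusted p = 0.032). SREBF1 and SREBF2 had log2 changes of 0.32 and 0.21 (adjusted p = 0.463 and 0.634), and SREBF1 stood at 14.6, 13.2 and 15.8 FPKM against 18.5, 15.4 and 21.4, with the groups overlapping. INSIG2 had 0.00.

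Of the transport genes in the second set, STARD4 was at 8.79, 9.77 and 9.17 FPKM in controls and 8.56, 8.35 and 8.43 in the libraries labelled TGFbeta1, each of the latter below each control (log2 change -0.12, adjusted p = 0.581). ABCA1 passed the filter here, at 1.34, 1.42 and 1.42 FPKM against 1.17, 1.11 and 1.07 (log2 change -0.18, adjusted p = 0.512), also without overlap. NPC1 and NPC2 had log2 changes of -0.02 and 0.00 and ABCG1 of 0.09. Of the 7 fatty acid genes, 6 had values above 0, none was called, and the groups lay apart upward for 4 (ACLY, FASN, SCD and FADS2). Beside this, 9.71% of all genes tested in the second set lay apart upward. SCD was at 365, 367 and 356 FPKM against 451, 424 and 421 (log2 change 0.25, SE 0.05, adjusted p = 0.143), ACLY at 73.5, 78.2 and 78.9 against 87.2, 95.8 and 87.8 (0.23, adjusted p = 0.279) and FASN at 86.4, 83.0 and 88.6 against 90.5, 102 and 110 (0.22, adjusted p = 0.404). The others were FADS2 at 0.23, FADS1 at 0.01, ELOVL6 at 0.40 and ACACA at -0.27. LPIN1 had a log2 change of -0.14 (adjusted p = 0.658).

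The difference between the sets was tested for each member with an interaction term over all 12 libraries. It was called for 4 of the 33 members tested, with the effect higher in the second set for HSD17B7 and SREBF1 and lower for MSMO1 and STARD4. Over all 10548 genes tested 7.56% were called higher in the second set and 6.06% lower, and these shares turned with scaling, from 797 higher and 639 lower to 535 and 767 with libraries set to an equal sum. The log2 change of STARD4 was 0.96 in the first set but -0.12 in the other (difference -1.07, SE 0.13, adjusted p = 0.000397). That of MSMO1 was 0.89 and 0.26 (difference -0.63, SE 0.14, adjusted p = 0.012). The log2 change of SREBF1 was -0.54 in the first set but 0.32 in the second (difference 0.86, SE 0.18, adjusted p = 0.0108), and that of HSD17B7 was 0.40 and 1.45 (difference 1.05, SE 0.21, adjusted p = 0.00822). All 4 calls held without any 1 library, with adjusted p of 0.000165 to 0.0311, and in the 10 other settings. FASN had -0.24 and 0.22 and did not pass (adjusted p = 0.0885). ABCA1 was under the filter of this fit, and with no filter its difference was -0.74 (adjusted p = 0.000765). The control levels also lay apart between the sets, with STARD4 at 3.05 to 3.23 FPKM in the first set but 8.79 to 9.77 in the second, MSMO1 at 29.2 to 38.2 and 76.4 to 82.5, and HSD17B7 at 9.39 to 14.6 and 1.92 to 2.69. These levels come from tables normalised apart and are given with no test.

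Sterol and fatty acid genes were then set side by side by their medians, with no test, since the members were chosen with results of these data known. The sterol median of the first set was 0.42 and the fatty acid median -0.02, a gap of 0.44, and in the second the medians were 0.17 and 0.23, a gap of -0.06. In each TGFbeta1 library of the first set the median sterol gene stood 0.29, 0.39 and 0.49 above the control mean, and in the controls at -0.09, -0.13 and 0.23. The fatty acid median stood at 0.04, -0.25 and 0.10 with TGFbeta1 and at -0.06, -0.15 and 0.20 in the controls, so those groups overlapped. For the second set the sterol median was 0.19, 0.20 and 0.13 with TGFbeta1 and the fatty acid median 0.17, 0.19 and 0.22, each above all 3 controls. The first-set fatty acid median rests on few genes and was 0.48 when only transcripts listed in both tables were summed, which changed ACACA from -0.37 to 0.74 and left FASN out.

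**Figure D3:**
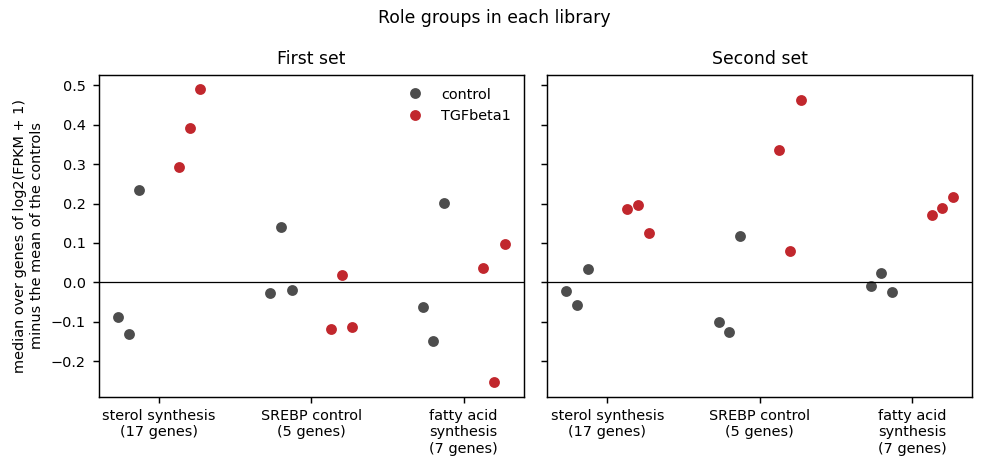
Median over the genes of a role group of log2(FPKM + 1) minus the mean of that set's controls, for each library (points); groups with 17 sterol, 5 SREBP control and 7 fatty acid genes are on the x axis, first set left and second set right. In the first set the sterol points of the TGFbeta1 libraries lie at 0.29 to 0.49, above the controls at -0.13 to 0.23, while the fatty acid points of the groups overlap.

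Transcript values showed where a gene's sum rested on exchanges between its transcripts. Of 78 member transcripts tested in the first set 2 were called, MSMO1-001 (log2 change 0.92, adjusted p = 0.0176) and STARD4-001 (1.02, adjusted p = 0.0183), beside 5.54% of 18113 transcripts. Of 90 tested in the second set 1 was called, HSD17B7-201 (1.45, adjusted p = 0.0403), beside 0.221% of 20392 transcripts. MSMO1-001 held most of the gene, at 25.8, 25.3 and 32.9 FPKM in controls and 53.7, 51.6 and 55.5 with TGFbeta1. For the second set, MSMO1 was divided between MSMO1-201, which has the same transcript identifier as MSMO1-001 (log2 change 0.61, adjusted p = 0.501), and MSMO1-202 (-0.13, adjusted p = 0.895). STARD4-201 of the second set, the same transcript as STARD4-001, was at 3.28, 3.56 and 3.53 FPKM in controls and 7.65, 5.86 and 3.66 with TGFbeta1, while STARD4-212 was at 5.13, 5.51 and 5.29 against 0, 2.08 and 3.88. The gene sum, given above, thus joins a transcript with a value above 0 and one below 0, and neither passed the test (log2 changes 0.55 and -1.35, adjusted p = 0.751 and 0.746). SCAP in the second set shows the same within 1 library. Control 6 had 9.40 FPKM of SCAP-215, which was listed at 0 in the other 5 libraries, and 0.175 of SCAP-201, which was at 2.13 to 3.07 in those 5. Gene values of 2.26, 3.07 and 11.6 FPKM in controls and 3.07, 2.59 and 2.31 with TGFbeta1 followed from that (log2 change -0.60, SE 0.51), and without control 6 the change was 0.00.

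**Figure D4:**
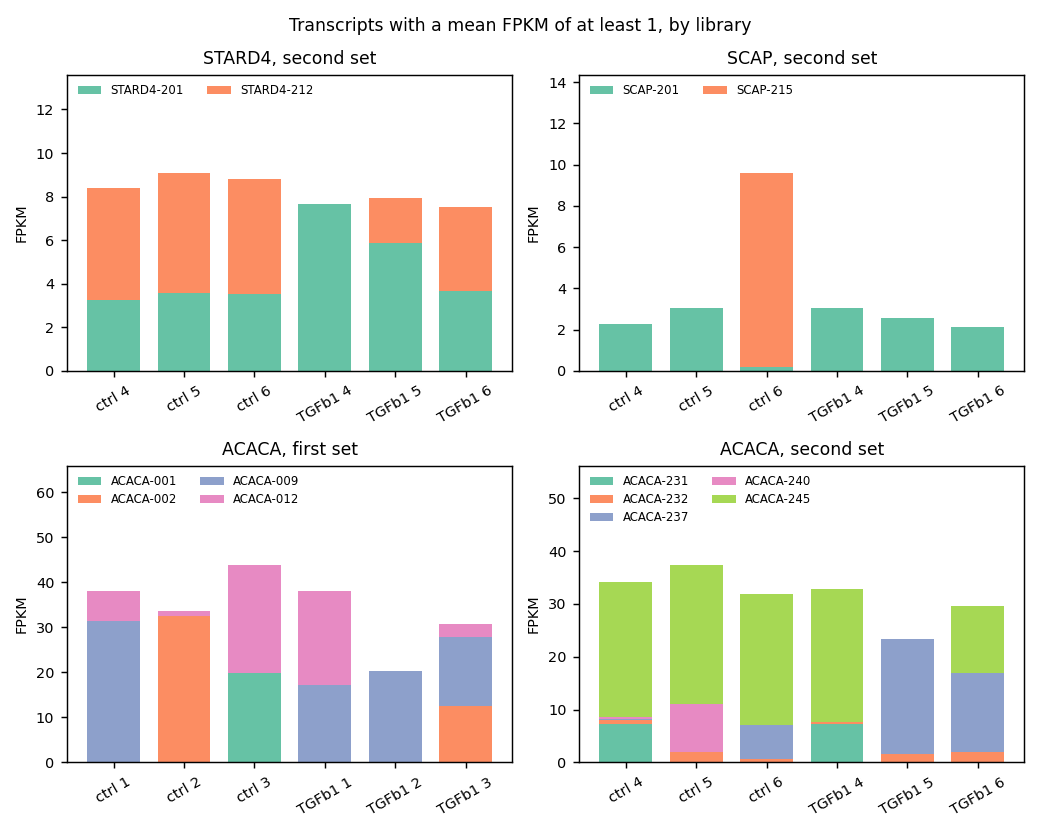
FPKM of the listed transcripts with a mean of at least 1 FPKM, stacked by library, for STARD4 and SCAP in the second set and for ACACA in both. In the SCAP panel control 6 carries 9.40 FPKM of SCAP-215, listed at 0 elsewhere, and the ACACA panels show different transcripts leading in different libraries of the same group.

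Genes next to the pathway were counted from lists chosen along with the members, and their calls are read beside the 9% and 11.9% of all genes given above. With TGFbeta1, in the first set, 1 of 16 further fatty acid genes rose and 1 fell, namely ME1, the malic enzyme that supplies NADPH (from 11.1, 18.6 and 19.3 to 28.6, 28.5 and 28.2 FPKM, log2 change 0.80, adjusted p = 0.0474), and HACD2, a dehydratase of elongation (-0.69, adjusted p = 0.0195). The ME1 call held without control 1 and was lost without each of the other 5 libraries (0.0512 to 0.122), and that of HACD2 was lost without control 1, TGFbeta1 1 or TGFbeta1 2 (0.0509 to 0.0622). Of 16 genes of acyl-CoA and glycerolipid assembly, 1 rose and 3 fell. GPAM, the mitochondrial acyltransferase that opens glycerolipid synthesis and a known SREBP1 target, rose from 8.54, 9.45 and 9.10 to 35.5, 34.0 and 28.7 FPKM (log2 change 1.75, SE 0.10, adjusted p = 0.000364). The lipid droplet coat gene PLIN2 fell from 6.41, 7.04 and 7.69 to 2.32, 3.50 and 3.16 FPKM (log2 change -1.02, adjusted p = 0.00632). Of 15 genes of fatty acid oxidation 6 fell, with a median of -0.35. CPT1A, which admits long-chain fatty acids to mitochondria, fell from 14.9, 14.3 and 11.4 to 5.51, 7.01 and 7.11 FPKM (log2 change -0.94, adjusted p = 0.00828). Of 12 genes of sterol receptors, esterification and movement 3 rose and 1 fell, led by GRAMD1A, which carries cholesterol from the plasma membrane to the endoplasmic reticulum (1.12, adjusted p = 0.00341; 0.0879 with only transcripts of both tables), and by NR1H3, the gene of LXRalpha (-0.73, adjusted p = 0.00916). NR1H3 was at 2.18, 2.02 and 1.97 FPKM in controls and 0.641, 0.862 and 1.04 with TGFbeta1. Of 15 isoprenoid and prenylation genes 1 fell, PDSS1 of ubiquinone side chain synthesis (-0.73, adjusted p = 0.00607), and 0 of 8 genes of SREBP processing passed the test.

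On hg19, per the files, the called members lie as follows, each span covering the gene's listed transcripts from end to end. MSMO1 (ENSG00000052802.12_2) is on chromosome 4, 166248775 to 166264312, and STARD4 (ENSG00000164211.12_1) on chromosome 5, 110831731 to 110848288. HSD17B7 (ENSG00000132196.13_1) is on chromosome 1, 162760513 to 162782319, and SREBF1 (ENSG00000072310.16_2) on chromosome 17, 17715387 to 17740316. IDI1 is on chromosome 10, 1085848 to 1095110, CYP51A1 on chromosome 7, 91741465 to 91764117, and NPC1 on chromosome 18, 21086148 to 21166862. FADS2 is on chromosome 11, 61560452 to 61634826, and LPIN1 on chromosome 2, 11864478 to 11967535.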

How the data were processed

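RNA of 12 MCF-12A libraries was taken up in Trizol, per the labels. Per the submitters' processing notes the tools were cutadapt, FastQC, StringTie 1.2.3 and HISAT2 2.0.4, with hg19 as the build. The authors deposited FPKM per protein-coding transcript in 2 tables (44112 transcripts in the first, 29204 in the second). For the first table no header states the unit, which was inferred as FPKM from the values. For the second table the authors deposited a log2 fold change, a linear fold change (ratio), p-values and q-values per transcript, used only where that table is named.

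Transcripts were summed per gene, and 163 symbols were matched between the tables through shared transcript identifiers. Those averaging 1 FPKM or more were tested on log2(FPKM + 1), which shrinks changes of low genes, with limma 3.58.1 in R 4.3.3 (mean-variance trend, two-sided, Benjamini-Hochberg over all genes, called under 0.05). FPKM are relative to the library total, and reads shared by similar transcripts or gene copies may be assigned to either. Members called in a set or for the interaction are given in every library, and of the other lists the called gene with the largest change in each direction, some of which are not reported here. Members and lists were chosen with earlier results of these data known. The alternatives were another pseudocount (0.1), filter (none, or 5 FPKM), scaling, variance model or set of transcripts, a replicate block, and leaving out each library. On data simulated from each set, 66% (first) and 79% (second) of 100 genes given a log2 change of 1 were called, and 91% and 88% of 100 given 2. The changed genes had a mean log2(FPKM + 1) above 2, and the noise was normal and independent between genes. The real second set had fewer calls (18 higher, 16 lower), which makes its adjusted test stricter than the simulated one. These shares therefore do not give the power for low members or for the second set. Motifs were searched with Python 3.11.15 and pandas 2.3.3, and figures drawn with matplotlib 3.10.9. Promoters are on GRCh38.p14 and deposited coordinates on hg19, with no conversion.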

Additional observations from a re-analysis of the deposited data

Results flagged for a closer look

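The response of 4 members differed between the 2 sets by the interaction test in limma, each given as the log2 change of the second set minus that of the first. The difference was 1.05 for HSD17B7, 0.86 for SREBF1, -0.63 for MSMO1 and -1.07 for STARD4. Over all 10548 genes tested, 7.56% were called higher in the second set and 6.06% lower. The members, with 2 called higher and 2 lower, were thus not called more often than genes at large. For SREBF1 and STARD4 the change had opposite signs in the 2 sets, and neither was called in the second. The second-set gene values of STARD4 and MSMO1 join transcripts with values above and below 0. STARD4-001, named STARD4-201 in the second set, had 1.02 and 0.55 in the 2 sets, while STARD4-212 had -1.35 in the second. MSMO1-001, there named MSMO1-201, had 0.92 and 0.61, while MSMO1-202 had -0.13. Differences between the sets were not tested per transcript. The sets also differ in table, in normalisation and in the TGFbeta response check, and these cannot be told apart from one another here.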

How the results depend on the processing

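The calls of MSMO1 and STARD4 in the first set and the 4 differences between the sets held under every alternative tried. All of these alternatives used gene sums, and none tested the difference for single transcripts. The same alternatives were run for the called genes of the other lists, a step added after seeing the data, and GPAM, PLIN2 and PDSS1 kept their calls in all of them. The replicate block also ended the calls of CPT1A (adjusted p = 0.0501) and NR1H3 (0.0523). Leaving out 1 library gave 2 to 10 members higher and 0 to 2 lower in the first set, 0 to 2 higher in the second, and 2 to 4 lower for the difference between the sets. With the replicate block, 1 member was lower in the first set and 0 were higher in the second, where the adjusted p of HSD17B7 was 0.19, and CYP51A1, NPC1 and LPIN1 lost their calls. The block has no basis in the labels beyond shared numbers: deviations of same-numbered libraries correlated at 0.0075 to 0.046, and not every library correlated best with its own number. With only transcripts listed in both tables, 1 member was lower in the first set, where LPIN1 was not tested. At a minimum of 5 FPKM HSD17B7 was not tested and 0 were higher in the second. The fatty acid median of the first set was 0.48 with transcripts of both tables. That of the second set was 0.18 under quantiles, 0.20 with an equal sum and 0.18 to 0.25 without 1 library, and the sterol median of the second set was 0.14 to 0.21 without 1 library.

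Values near 0 that did not pass the test changed sign under some settings, and the cause was not tested. In the first set SREBF2 was at 0.016 under quantiles and 0.020 with an equal sum, and INSIG2 at 0.00021 by median of ratios and 0.022 with an equal sum. By median of ratios, quantiles and equal sum, NPC2 was at 0.018, 0.041 and 0.048 and ACLY at 0.036, 0.076 and 0.066. ACACA was at 0.74 with transcripts of both tables. In the second set an equal sum gave -0.014 for PMVK, -0.022 for NSDHL, -0.018 for INSIG2, -0.023 for NPC2 and -0.011 for FADS1. Quantiles gave -0.0034 for NSDHL and -0.018 for NPC2, a pseudocount of 0.1 gave -0.0042 for INSIG2, and transcripts of both tables gave 0.064 for SCAP and -0.0071 for FADS1. Leaving out 1 library spread the log2 change of the first set over -0.025 to 0.48 for SC5D, -0.26 to 0.54 for INSIG1, -0.18 to 0.10 for INSIG2, -0.17 to 0.18 for NPC2, -0.12 to 0.15 for ACLY and -0.37 to 0.028 for ELOVL6. In the second set it spread over -0.015 to 0.039 for PMVK, -0.079 to 0.088 for LSS, -0.073 to 0.062 for NSDHL, -0.41 to 0.22 for SC5D, -0.33 to 0.0073 for DHCR7 and -0.97 to 0.0011 for SCAP, and over -0.17 to 0.27 for INSIG2, -0.14 to 0.068 for NPC1, -0.059 to 0.091 for NPC2, -0.073 to 0.39 for ABCG1 and -0.058 to 0.11 for FADS1.

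Without counts, depth and counting error are unknown, and so is the precision of members near 1 FPKM, such as TM7SF2, ABCA1 and ABCG1. Gene sums of SCAP and ACACA depend on which transcript the reads were assigned to. In the second set, those of STARD4 and MSMO1 also join transcripts with values above and below 0.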
